A study of Mus musculus with 2 samples.

Results

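The 35 genes described here encode lysosomal hydrolases, the precursors of their activators and proteins of the lysosomal membrane. They were chosen by name, and each symbol matched exactly 1 of the 45578 genes in the table. Ribosome-protected fragments, the short stretches of mRNA that ribosomes shield from nuclease, were counted in brain polysomes of 2 mice at postnatal day 5. Both mice were controls of the Taiwanese model of spinal muscular atrophy on a congenic FVB background, with the genotype Smn+/-; SMN2tg/0. Both animals thus carried only 1 intact Smn allele along with human SMN2 as a transgene, and a group without these alleles was not analysed here. The mice formed 1 group of 2 biological replicates, so there was no contrast between conditions, and differences between the replicates are differences between 2 libraries.

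Lysosomes are acidic organelles in which proteins, glycans, lipids and nucleic acids are broken down. Most soluble hydrolases are made on ribosomes at the endoplasmic reticulum, receive a mannose 6-phosphate tag in the Golgi and are carried onward by mannose 6-phosphate receptors, while membrane proteins are sorted by signals in their cytoplasmic tails. Loss of single members causes storage disorders, many of which affect the brain, and activity in neurons, glia and microglia differs between enzymes. The transcription factor Tfeb is known to bind a promoter element, often called the CLEAR element, that has the E-box core CACGTG at its centre and is found in many lysosomal genes.

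That core was looked for in RefSeq promoter windows of assembly GRCm38.p6, each holding 250 bases before and 50 after an annotated start. Windows were listed for 32 of the 35 genes. The motif CACGTG, which reads the same on both strands, was present in 12 of these 32 genes (37.5%), against 8.09% of the 27025 genes with a window. The longer motif TCACGTGA, which contains the shorter one and is also its own reverse complement, was present in 5 of the 32 (15.6%), against 1.12% of all genes with a window. The 7 places where the longer motif stood are shown with 30 bases each, 5′ to 3′ on the strand of the gene, because they are the closest matches among the promoters; the capitals mark the 8 bases of the motif.

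Ctsa, chr2:164833749-164833778, plus strand: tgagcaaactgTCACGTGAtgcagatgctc
Ctsa, chr2:164833766-164833795, plus strand: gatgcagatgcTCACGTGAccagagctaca
Ctsd, chr7:142387908-142387937, minus strand: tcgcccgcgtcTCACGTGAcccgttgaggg
Cln3, chr7:126583340-126583369, minus strand: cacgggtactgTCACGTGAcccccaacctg
Gla, chrX:134601215-134601244, minus strand: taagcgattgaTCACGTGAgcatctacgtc
Gla, chrX:134601182-134601211, minus strand: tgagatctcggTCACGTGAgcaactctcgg
Mcoln1, chr8:3500462-3500491, plus strand: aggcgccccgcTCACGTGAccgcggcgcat

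The first base of the core lay 12 bases before the annotated start of Ctsa and, for its other match, 5 bases after the first base of the gene. In the other matches to the longer motif it lay 98 bases before the start in Ctsd, 121 in Cln3, 45 in Mcoln1, and 227 and 194 in Gla. Lamp1 had the core 4 times, at 61, 45, 28 and 15 bases before its start, each time without the longer motif. A further core without the longer motif stood at 245 bases before the start in Ctsd, 149 in Cln3 and 71 in Mcoln1. The core alone was also present in Arsa, Ctsf, Ctsl, Gaa, Glb1 and Naglu. A match describes the letters of a window and was not read as a binding site.

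The libraries held 1866831 footprints in replicate 1 and 5261878 in replicate 2, so a count of 0 would have allowed up to 1.61 and 0.570 CPM (counts per 1000000 footprints of the library), taking 3 counts as the floor. All listed neuron, astrocyte, oligodendrocyte, endothelial and microglia markers had footprints in both libraries. Of 5 liver genes, 3 had none in either. In whole brain, fewer cells of a type and less RNA per cell cannot be told apart. Intervals and binomial p-values cover counting error only, and not variation between animals or libraries. PCR copies are not independent molecules, so even the counting error may be understated.

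The 35 genes together took 0.542% of the footprints in replicate 1 (10114 counts; Clopper-Pearson 95% interval 0.531 to 0.552) and 0.461% in replicate 2 (24235 counts; 0.455 to 0.466), a mean of 0.501% ± 0.0574 (SD, n = 2). The intervals did not overlap, and replicate 2 was the lower. Psap alone supplied 34.8% ± 2.61 of the list's footprints. Without Psap the share was 0.343% and 0.309%. By role, the precursors Psap and Grn held 38.5% ± 1.99 of the list's footprints, membrane proteins 14.7% ± 0.860, glycosidases 11.3% ± 0.139, the proteases other than cysteine cathepsins 11.1% ± 1.43 and cysteine cathepsins 10.6% ± 1.18. Lipid hydrolases held 5.71% ± 0.585, sulfatases 5.56% ± 0.00976 and the cholesterol transfer proteins 2.50% ± 0.152.

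To compare genes, the summed count of a gene was divided by its longest annotated coding sequence and by the library total, giving a footprint density in CPM per kilobase of coding sequence. Counts belong to whole transcripts, so fragments outside the coding sequence are included. The median density of the 35 genes was 42.1, against 23.5 for the 13317 coding genes that averaged 10 or more counts. Of the members, 27 lay above that median, 5 in the top 10% and 2 in the bottom 25%. Densities ran over a 473-fold range, from Psap to Idua, and the order was nearly the same in both libraries (Spearman's rho 0.982 over the 35 genes, which share the libraries). Of the 34 pairs of neighbours in that order, 27 had overlapping replicate ranges. The steps without overlap lay below Psap, Lamp1, Cd63, Ids, Tpp1, Hexa and Gla. Members with longer coding sequences had lower densities (rho -0.50, n = 35), as had all coding genes tested (rho -0.45, n = 13317); coding length is itself the divisor of density.

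**Figure D1:**
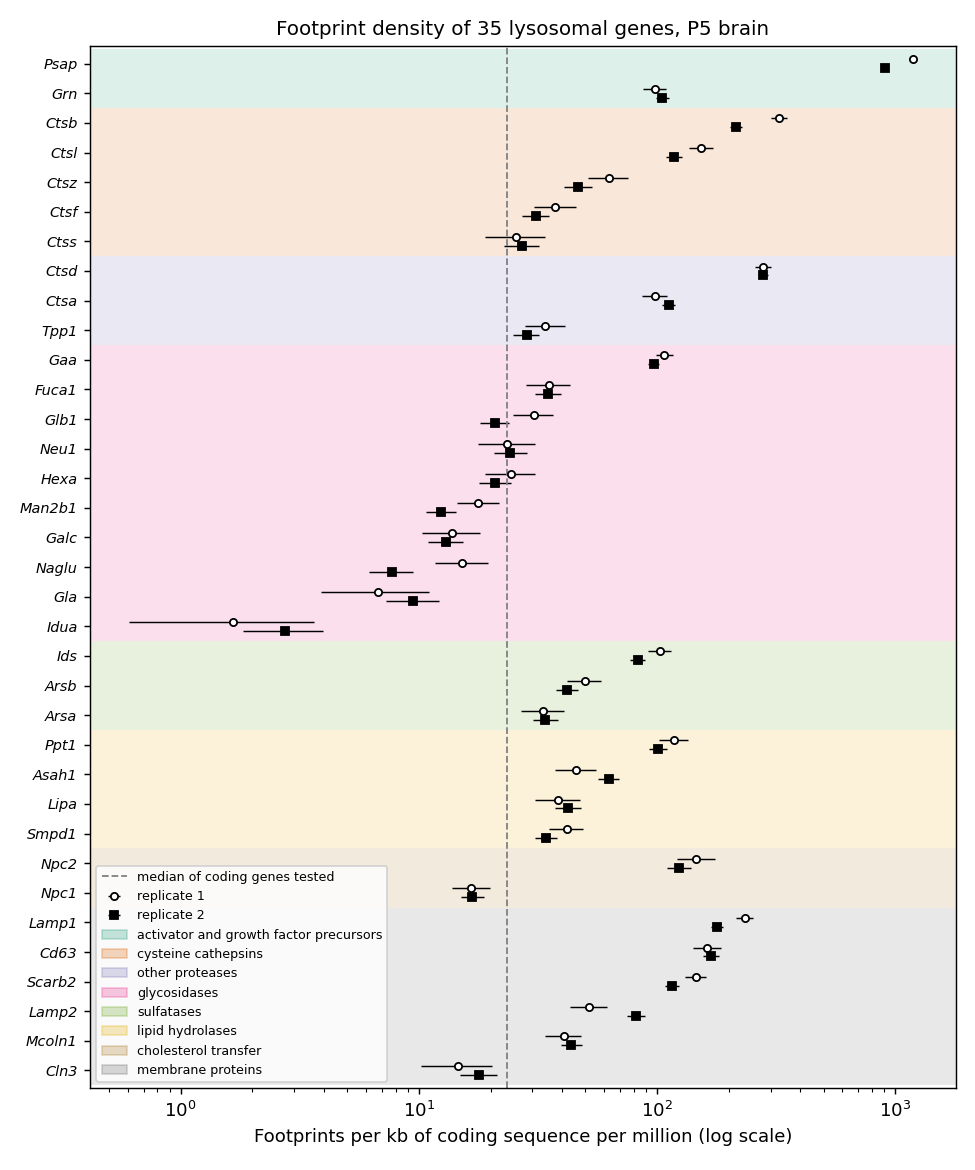
Footprint density of each lysosomal gene in replicate 1 (open circles) and replicate 2 (filled squares) on a log axis, grouped by role, with Clopper-Pearson 95% intervals for counting error. Psap lies at 1185 and 906, to the right of all others, Idua at 1.66 and 2.75 is the lowest, and the dashed line is the median of coding genes tested, 23.5.

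Psap and Grn encode precursors that are cut into small active peptides. Psap yields the saposins, which present sphingolipids to their hydrolases. It had 3703 footprints in replicate 1 and 7979 in replicate 2, which is 1984 CPM, with a 95% interval from 1920 to 2048, and 1516 CPM, from 1483 to 1550. Its density of 1185 and 906, mean 1045 ± 197 (SD, n = 2), stood at percentile 99.7 of coding genes tested and 3.76 times above that of the next member, Ctsd. Psap has 5 annotated coding transcripts with coding sequences between 1656 and 1674 nucleotides. Each held between 18.6% and 21.3% of the gene's footprints in replicate 1, and between 19.2% and 20.6% in replicate 2. Fragments from the sequence these transcripts share can match all 5, and no part specific to 1 of them was counted alone. The nearly even split therefore cannot show which of them were used. Grn, which encodes progranulin, had 330 and 1002 footprints and a density of 97.7 and 105. Psap was 12.1 times as dense as Grn in replicate 1 (95% interval 10.8 to 13.6) and 8.61 times in replicate 2 (8.06 to 9.20).

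The cathepsins are the main lysosomal proteases. Among the cysteine cathepsins, Ctsb came first with 619 and 1155 footprints and a density of 325 and 215. Ctsl followed with 287 and 622 footprints and a density of 153 and 118, and Ctsz, a carboxypeptidase, with 108 and 226 footprints and a density of 62.8 and 46.6. All 3 were lower in replicate 2. Ctsf had a mean density of 34.2 ± 4.59. Ctss, which is known from microglia and macrophages, had the lowest of the 5 at 26.3 ± 1.03, from 49 and 146 footprints. The 12 microglia markers had a median density of 30.6 in the same libraries, with Cx3cr1 highest at 48.0.

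Ctsd, the aspartic protease, had 640 and 1804 footprints and the same density, 278, in each library. Ctsd therefore stood below Ctsb in replicate 1 (ratio 0.855, interval 0.765 to 0.957) and above it in replicate 2 (ratio 1.29, 1.20 to 1.39), and the order of the pair differed between the libraries. With coding transcripts alone Ctsd lay below Ctsb in both (ratios 0.450 and 0.701), because 46.5% of the Ctsd count lay on transcripts of other classes. Ctsb has 1 annotated transcript and could lose no counts, so this setting does not settle the order. Ctsa, a serine carboxypeptidase, had 270 and 870 footprints and a density of 97.8 and 112. Tpp1, which removes tripeptides from the ends of proteins, had 107 and 252 footprints and a density of 33.9 and 28.4.

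The 10 glycosidases, which trim sugars from glycans and glycolipids, held the least dense members, with a median density of 18.9. Gaa, which degrades glycogen, was the exception among them, with 573 and 1458 footprints and a density of 107 and 96.8. Fuca1, the fucosidase, had 89 and 249 footprints and a density of 35.1 and 34.8. Glb1, the beta-galactosidase, had 110 and 213 footprints and a density of 30.3 and 20.8.

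Man2b1, the alpha-mannosidase, had 101 and 199 footprints and a density of 17.8 and 12.4. Naglu, which acts on heparan sulfate, had 63 and 90 footprints and a density of 15.2 and 7.70. All 3 were lower in replicate 2. Neu1, the sialidase, had 54 and 157 footprints and a density of 23.5 and 24.3, while Hexa had a mean density of 22.6 ± 2.37 and Galc, the galactosylceramidase of myelin lipids, 13.4 ± 0.614. Gla, the alpha-galactosidase, had 16 and 63 footprints and a density of 6.77 and 9.46.

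Idua, which removes iduronic acid from dermatan and heparan sulfate, was the only member under 10 counts in a library. It had 6 and 28 footprints, which is 3.21 CPM, with an interval from 1.18 to 6.996, and 5.32 CPM, from 3.54 to 7.69. It lay at percentile 4.25 of the coding genes tested. A difference between the replicates was not detectable at this depth.

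Sulfatases remove sulfate groups and need activation by Sumf1. Ids, which acts on the same glycosaminoglycans as Idua, had 319 and 725 footprints and a density of 103 and 83.1. Arsb had 149 and 353 footprints and a density of 49.7 and 41.8, and Arsa, which degrades the myelin lipid sulfatide, 94 and 272 footprints and a density of 33.1 and 34.0. The mean density of Ids was thus 93.0 ± 14.1, against 2.21 ± 0.771 for Idua.

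Lipid hydrolases lay in the middle of the order. Ppt1, which removes palmitate from proteins, had 202 and 489 footprints and a density of 117 and 101. Asah1, the acid ceramidase, had 101 and 391 footprints and was denser in replicate 2, at 45.7 and 62.7. Lipa, the acid lipase, had 86 and 266 footprints and a density of 38.6 and 42.3, and Smpd1, the acid sphingomyelinase, had a mean density of 38.0 ± 5.37.

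Membrane proteins spanned from 205 ± 38.9 for Lamp1 to 16.3 ± 2.30 for Cln3. Lamp1, an abundant glycoprotein of the limiting membrane, had 531 and 1143 footprints and a density of 233 and 178. Scarb2, a sorting receptor of the lysosomal membrane, had 390 and 872 footprints and a density of 145 and 115. Both were lower in replicate 2.

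Cd63, a tetraspanin, had 217 and 637 footprints and a density of 162 and 169. An annotated pseudogene, Cd63-ps, had 121 and 418 footprints. Fragments of this length can match both, so the Cd63 value is uncertain, and adding the pseudogene's counts gave a density of 253 and 280. Lamp2, a glycoprotein that also serves as receptor in chaperone-mediated autophagy, had 121 and 537 footprints and a density of 51.8 and 81.6, so it was the denser in replicate 2. Mcoln1, a cation channel, had 132 and 401 footprints and a density of 40.6 and 43.7.

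Several members act in pairs, and their densities were set against each other within each library. The protective protein Ctsa, which binds Glb1 and Neu1 in 1 complex, was 3.23 and 5.37 times as dense as Glb1, and 4.16 and 4.61 times as dense as Neu1. Gm2a, the activator protein that lifts ganglioside out of the membrane for Hexa, was 7.95 and 5.87 times as dense as Hexa. The soluble cholesterol carrier Npc2 had 123 and 293 footprints on a coding sequence of 450 nucleotides, the shortest of the list. Its membrane partner Npc1 had 119 and 339 footprints on 3834 nucleotides, the longest, so nearly equal counts gave Npc2 8.81 and 7.36 times the density. This ratio rests on the divisor, because the Npc2 transcript has 3261 nucleotides and its whole length was counted. Per kilobase of transcript Npc2 stood at 20.2 and 17.1 CPM. The coding transcript Npc1-001, with 68.9% and 78.5% of that gene's footprints, stood at 8.41 and 9.68.

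Psap was denser than each of the 4 saposin-assisted hydrolases set against it. It was 14.4 to 26.0 times as dense as Asah1 and 26.7 to 35.8 times as dense as Arsa. Against Galc the factor was 70.0 to 85.8, and against Gla 95.8 to 175. With coding transcripts only, the mean ratio to Arsa went from 31.2 to 53.1 and that to Grn from 10.4 to 16.9. Lamp1 was 4.50 and 2.18 times as dense as Lamp2, and those intervals did not overlap. Of the 11 pairs, 10 had the same member ahead in both libraries, the exception being Ctsd and Ctsb. With coding transcripts only, all 11 had the same member ahead. That setting removes counts only from genes that have other classes of transcript, such as Ctsd, Arsa and Grn.

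**Figure D2:**
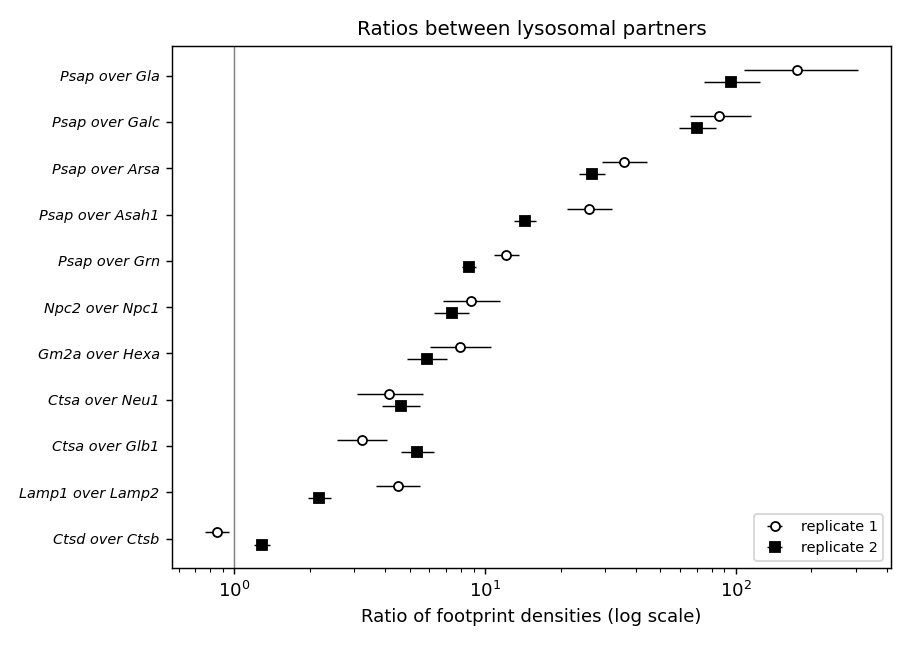
Ratio of footprint densities for 11 pairs of lysosomal partners in replicate 1 (open circles) and replicate 2 (filled squares) on a log axis, with Clopper-Pearson 95% intervals; the vertical line marks equal density. Ctsd over Ctsb is the pair that falls on both sides of the line, at 0.855 and 1.29.

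Footprints of a gene were spread over its annotated transcripts. Transcripts not annotated as protein coding held 10.3% ± 1.16 of the list's footprints (SD, n = 2), against 19.7% ± 1.12 for all genes with a coding transcript; without Psap the list's share was 15.8%. Such transcripts share exons with the coding ones, so this is where fragments were counted and not evidence of separate molecules. All footprints of 19 members lay on coding transcripts, 13 of these members having a single annotated transcript. The other 16 had between 8.55% (Gaa) and 53.6% (Idua) on other classes.

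Mcoln1 had 48.5% of its footprints on transcripts annotated as retained intron in replicate 1 and 53.4% in replicate 2. For Neu1 the shares were 48.1% and 52.2%. Such counts cover the whole transcript, exons included, and none was made over an intron alone. The retained-intron transcript Neu1-002 stood at 3.26 and 3.73 CPM per kilobase of transcript, against 6.06 and 5.76 on the coding transcript Neu1-001. Ctsd differed in that its largest other class was a target of nonsense-mediated decay. Ctsd-003 held 226 and 633 footprints, close to the coding transcript Ctsd-001 with 222 and 667, and in CPM per kilobase of transcript it had 64.2 and 63.8 against 55.9 and 59.6. In Grn 38.2% and 39.1% lay on transcripts annotated as retained intron. In Lamp2, whose 3 coding transcripts differ in their last exon, Lamp2-001, Lamp2-002 and Lamp2-003 held 27, 34 and 30 footprints in replicate 1 and 129, 155 and 147 in replicate 2. None of the 3 dominated in either library. Fragments from the exons they share can match all 3, and the last exon was not counted alone. The split therefore cannot show which of them were used.

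**Figure D3:**
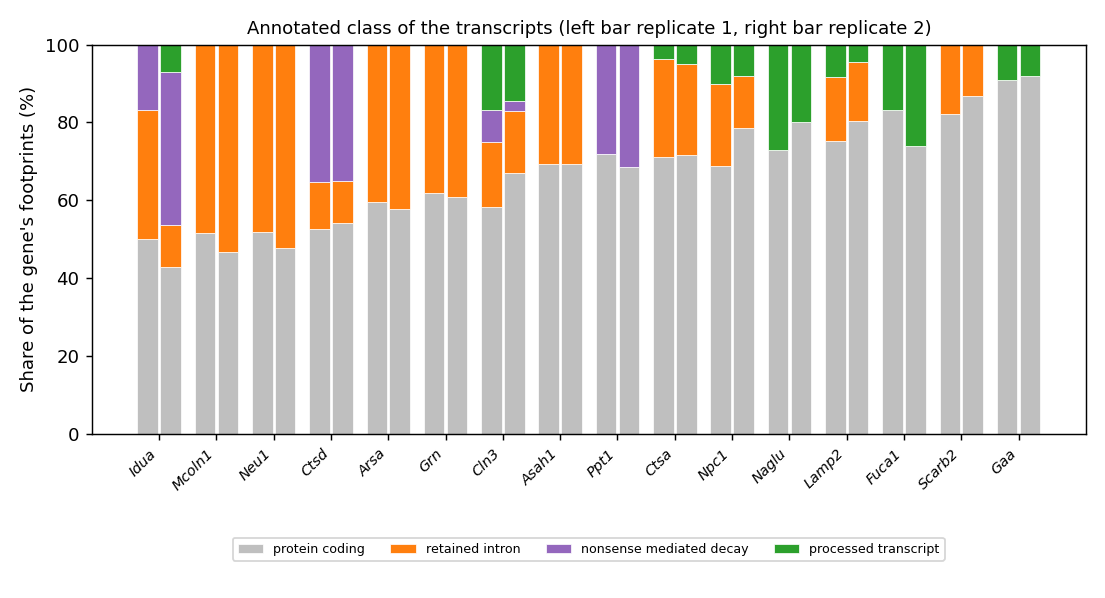
Share of each gene's footprints by annotated class of transcript, for the 16 lysosomal genes with footprints outside coding transcripts; the left bar is replicate 1 and the right bar replicate 2. The share on coding transcripts is lowest in Idua, Mcoln1 and Neu1, and Ctsd and Ppt1 stand out by a large share on targets of nonsense-mediated decay.

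The replicate libraries were then set against each other. For each gene the split of its counts was tested, two-sided and by the exact binomial distribution, against that of the library sizes after TMM scaling (trimmed mean of M values), with p-values adjusted over all 16427 genes averaging 10 or more counts. All 35 members passed that filter. The test called 15 of the 35 (42.9%), where 17.4% of all genes tested were called. Lower in replicate 2 were 14 of the called members (11.5% of all genes tested), and 1 was higher (5.95%). With library totals in place of TMM, 11 members were called where 19.0% of all genes were, 9 of them lower (7.47%) and 2 higher (11.5%). The members were more abundant than most genes, and more counts make a call easier: among the 4014 genes with levels between the quartiles of the members, 46.7 and 145 CPM, 29.8% were called.

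Naglu had the largest log2 ratio in size among the members, -1.08 with a counting error of 0.24 (exact binomial, adjusted p = 1.34e-04). Replicate 1 held it at 33.7 CPM, with an interval from 25.9 to 43.2, and replicate 2 at 17.1 CPM, from 13.8 to 21.02. Ctsb had a log2 ratio of -0.72 ± 0.07 (adjusted p 2.52e-20, exact binomial test) and Psap one of -0.51 ± 0.03 (8.86e-66). Glb1 and Man2b1 stood at -0.66 and -0.64, Ctsz at -0.55, Lamp1 at -0.51, Ctsl at -0.50, Scarb2 at -0.46 and Ids at -0.44. Smpd1, Arsb, Ppt1 and Gaa completed the called members that were lower, between -0.41 and -0.27. Lamp2 was the called member that was higher, at 0.53 ± 0.15 (adjusted p 2.31e-03 in the exact binomial test). With library totals Asah1 was called as higher too, and Ctsz, Smpd1, Arsb, Ppt1 and Gaa were not called.

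Over the whole list the median log2 ratio was -0.27, with 28 of 35 genes lower in replicate 2, while the median over all genes tested was 0.01 and 49.5% were lower. TMM moved every ratio down by 0.13; with library totals the list's median was -0.15, against 0.13 for all genes, and 20 members were lower. By role, 5 of 5 cysteine cathepsins were lower (4 with library totals), 3 of 3 sulfatases (2) and 8 of 10 glycosidases (7). Lower were also 2 of 2 precursors (1), 2 of 2 cholesterol transfer proteins (1), 2 of 3 other proteases (1), 2 of 4 lipid hydrolases (2) and 4 of 6 membrane proteins (2), whose median log2 ratio was -0.04. Of the genes with the CACGTG core in their window 9 of 12 were lower (6 with library totals), and of those without it 17 of 20 (13), with median densities of 38.2 and 43.1. The call depends on taking counting noise as the only error. edgeR's exact test with a dispersion estimated from these same libraries called none of the 35 and 11 of all genes. At an unadjusted p under 0.05 it had 2 members, Naglu and Ctsb, and 721 genes in all. Its dispersion treated the 2 libraries as 1 group, so the difference under test entered it. The edgeR test therefore cannot show how many calls would hold with variation between animals.

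The difference went with the number of annotated transcripts, a split made after the values had been seen. All 13 members with 1 annotated transcript were lower in replicate 2, also with library totals, from -0.22 for Galc to -0.72 for Ctsb, with a median of -0.41. The 22 members with several transcripts had a median of -0.07, and 15 of them were lower (7 with library totals). The same held for coding genes in general: the median was -0.28 over 3412 genes with 1 transcript, 74.4% of them lower, and 0.07 over 9905 genes with several, 42.0% of them lower. Each ratio was then centred on the median of all genes tested with 1 transcript, or of all with several. These classes included genes without a coding transcript, so their medians are not the coding medians above. Centring on the coding medians was not tried. After centring, 13 members were called, 12 of them among the 15. That setting called 15.1% of all genes tested. With it, 30 of 35 members were lower, and the list's median was -0.21 against 0 for all genes. Marker genes differed between the libraries too, with no common direction. Microglia markers had a median of -0.28 (-0.16 with library totals) with 9 of 12 lower, and summed to 0.0340% and 0.0341% of footprints. Of these, C1qa and C1qb were called lower and P2ry12 higher (17.4% of all genes tested were called), while with library totals P2ry12 and Itgam were called higher and none lower. Neuron markers had a median of -0.23 (-0.10 with library totals) with 8 of 8 lower, at 0.460% and 0.384%. Of them 4 were called lower (11.5% of all genes tested), and 3 with library totals (7.47%). Astrocyte markers had -0.09 (0.04 with library totals) at 0.235% and 0.236%. Of these 8, 2 were called lower, and with library totals 2 lower and 2 higher. Oligodendrocyte markers had 0.47 (0.59 with library totals) at 0.0899% and 0.122%. Of these 8, 4 were called higher and 1 lower in both settings, where 5.95% of all genes tested were called higher (11.5% with library totals). The part of cell makeup and of transcript annotation in the members' difference was not tested.

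**Figure D4:**
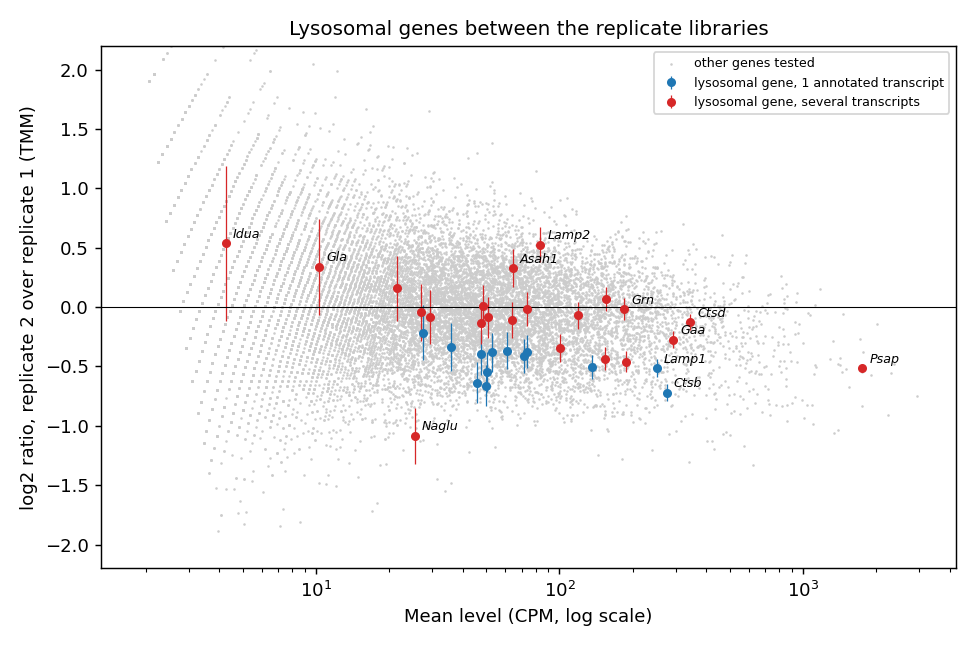
Log2 ratio of replicate 2 over replicate 1 with TMM scaling against mean level in CPM (log axis) for all genes tested (grey; 34 genes lie outside the plotted range) and for the lysosomal genes, with bars of 1 counting error. The 13 genes with 1 annotated transcript (blue) all lie below 0, and those with several (red) reach from -1.08 for Naglu to 0.54 for Idua.

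Other genes of the lysosome were described from lists of related function, whose calls stand against 17.4% of all genes tested (5.95% higher and 11.5% lower in replicate 2), or 19.0% with library totals (11.5% higher and 7.47% lower). Of 28 further hydrolases and activators, 27 were tested and 2 were called, Pld3 and Gm2a, both lower in replicate 2 (3 were called with library totals). Their median log2 ratio was -0.10 (0.03 with library totals) and their median density 20.4. Pld3, an exonuclease, was the densest at 352 ± 41.4, above every member but Psap, followed by the asparaginyl protease Lgmn at 170 ± 5.62. Of 23 further membrane proteins, 22 were tested; Laptm4a was called lower and Lamp5 higher, and the densest were Laptm4a at 222 ± 43.5 and Tmem9 at 207 ± 12.8. Their median log2 ratio was 0.09 (0.21 with library totals, under which Sidt2 was called higher too).

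Among 18 genes that sort or mature lysosomal enzymes, Ap1g1 was called higher and Ap3d1 lower, with a median log2 ratio of 0.04. With library totals 4 were called higher, Ap1g1 along with Vps29, Sort1 and Gnptab, and 1 lower, with a median of 0.16. Vps29, a retromer subunit, was densest at 288 ± 44.7, followed by Hgs at 75.3 ± 7.68. Among 16 regulators, Lamtor3 was called higher and Rraga lower, with a median of 0.05 (0.17 with library totals, which made the same calls). Lamtor4 and Lamtor2, of the complex that anchors mTORC1 at the lysosome, were densest at 221 ± 18.5 and 202 ± 29.2.

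The V-ATPase acidifies the lysosome and other compartments. Its 16 subunit genes had a median density of 250 (percentile 94.9), which was 42.1 for the members, and Atp6v0c, the proton-binding ring subunit, reached 1287 ± 263. The next was Atp6v0e2 at 548 ± 238. Of the 16, 8 were called and all 8 were lower in replicate 2, where 11.5% of all genes tested were called lower. They were Atp6v0c, Atp6v0e2, Atp6v1e1, Atp6v1f, Atp6v1b2, Atp6v0d1, Atp6ap2 and Atp6v1d, between -0.24 and -1.04 on the log2 scale, and the median over the list was -0.24. The subunit genes were denser than most genes, and more counts make a call easier. No share of calls was taken among genes at their level. With library totals 6 were called lower (7.47% of all genes tested) and 3 higher (11.5%), the latter being Atp6ap1, Atp6v0a1 and Atp6v1h, and the median was -0.11.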

How the data were processed

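The authors deposited whole-number counts of ribosome-protected fragments per transcript, with no normalization, in 1 table with the annotated lengths of each transcript and its parts. Per the labels' protocols, polysomal fractions were digested with RNase I and fragments of 25 to 35 nucleotides were selected. The submitters' processing notes name Trimmomatic 0.36, Bowtie2 2.2.6, SAMtools and build GRCm38.p4. The annotation release, the use of strand and the handling of duplicate and multiply matching fragments are not given in the sources used here.

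Counts of all transcripts were summed per gene. Summing was checked on 49 pairs of equally long transcripts of the same gene: the squared difference over the sum averaged 1.03, where 1 is the value for independent counts and 0 for fragments counted on both. TMM factors came from edgeR 4.0.16, size factors from DESeq2 1.42.0 and exact tests from SciPy 1.17.1. Log2 ratios used a prior of 0.5 CPM. The binomial comparison, called at an adjusted p under 0.05, was tested on simulated data. These held counting noise alone, as the test assumes, so they cannot show how it behaves with variation between libraries. No quasi-likelihood fit was made, since 1 group gives no contrast. The members and lists were chosen with earlier results of these data known. Genes described sample by sample were the 3 densest of each role, those under 10 counts, the 5 with the largest ratios between libraries and the 3 with the largest share outside coding transcripts; Lamp2, Ctss and Gla were added after their values were seen. Matched RNA levels were not analysed here, so values are footprint levels. Some partner genes are not reported here.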

Additional observations from a re-analysis of the deposited data

How the results depend on the processing

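The list's share of all footprints, 0.501%, was 0.326% without Psap and ranged from 0.461% to 0.542% without 1 replicate. With coding transcripts only it was 0.595%, but of the footprints on coding transcripts, a smaller total. The median density of 42.1 became 23.2 per kilobase of whole transcript and ranged from 41.8 to 42.3 without 1 replicate. With coding transcripts only it was 50.3, again scaled to that smaller total. Coding transcripts only moved 3 of 35 single densities by over 1.5 times, and the coding length of the highest transcript none. The smaller total raised densities of members that lost no counts, such as Psap from 1045 to 1382. It also offset part of the loss in the others, so the count of 3 understates how many lost a large share. The share outside coding transcripts, 10.3%, was 15.8% without Psap and ranged from 9.50% to 11.1% without 1 replicate. Of the 15 called members, 9 were called with the highest transcript per gene, all lower in replicate 2, where that setting called 9.41% of all genes and the sum over transcripts 17.4%, and 0 with edgeR's exact test, whose dispersion came from the same libraries (2 members at an unadjusted p under 0.05). The other settings called 11 to 15 members and 9.93% to 26.8% of all genes. The list's median log2 ratio was below 0 in all 9 settings tried, between -0.34 and -0.15. Centring by number of transcripts, coding transcripts only for the library comparison and adding Cd63-ps were chosen after seeing the data. No paired analysis was possible because the labels give 1 group.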
